A study of Homo sapiens with 4 samples.

Results

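FGF19, FGF21, their co-receptor KLB and the FGF receptors FGFR1, FGFR2, FGFR3 and FGFR4 were examined in Huh7, a long-established line of human liver cancer cells (hepatocellular carcinoma). These 7 genes were chosen by name from 42067 gene names, and each was represented by the transcript model with the most reads over the libraries. All 7 were among the 27702 genes that had at least 10 reads in at least 2 libraries. The H2O2 group was kept for 4 days in DMEM with 10% fetal bovine serum and 300 µM hydrogen peroxide (H2O2), renewed daily. The mock group had the same medium, also renewed daily, without H2O2. Each group had 2 RNA-seq libraries made from total RNA with a TruSeq kit, which the sample titles mark H and Q. No source used here says what these letters stand for. Nothing in the labels says that the libraries of a group came from separate cultures, so the p-values measure the spread between these libraries, which may be technical.

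FGF19 and FGF21 are hormone-like fibroblast growth factors, which bind heparan sulfate weakly and need a klotho protein beside the receptor. In the body FGF19 is secreted by the ileum after bile acid uptake and acts on hepatocytes through FGFR4 and beta-klotho, the product of KLB, to lower bile acid synthesis. FGF21 is made mainly by the liver in fasting and cell stress, and it signals chiefly through FGFR1 with beta-klotho. Hepatocellular carcinoma cells can make FGF19 themselves, and many also express FGFR4 and KLB.

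The start-site windows of FGF21, KLB and FGFR4 are shown because these genes are the hormone made in the liver, the shared co-receptor and the receptor of highest level in these cells. The windows run from 250 bases before to 50 bases after the annotated start, on the strand of the gene, and come from RefSeq on GRCh38.p14. Windows of 5 of the 7 genes were examined. FGF19 had none, and any window of FGFR1 is not reported here. FGF21 lies at chr19:48755274-48755573 on the plus strand, KLB at chr4:39406680-39406979 on the plus strand, and the first FGFR4 start at chr5:177086665-177086964 on the plus strand. Capitals mark matches, on either strand, to any of 5 motifs. The composite motif read by C/EBP and ATF factors, among them the stress factor ATF4, was searched as TGATGNAA. The E box, bound by many basic helix-loop-helix factors, was searched as CACGTG. The GC box of Sp1-like factors, frequent in promoters without a TATA box, was searched as GGGCGG. The TATA box itself was searched with the letters TATAAA. A site of the liver factor HNF4 was searched as CAAAGTCCA. No matches overlap in the windows printed.
FGF21: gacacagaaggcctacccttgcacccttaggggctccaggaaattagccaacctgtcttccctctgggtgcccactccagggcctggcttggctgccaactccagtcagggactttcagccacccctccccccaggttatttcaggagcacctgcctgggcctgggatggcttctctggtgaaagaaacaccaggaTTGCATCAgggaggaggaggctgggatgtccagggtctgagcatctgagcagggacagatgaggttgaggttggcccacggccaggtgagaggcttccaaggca
KLB: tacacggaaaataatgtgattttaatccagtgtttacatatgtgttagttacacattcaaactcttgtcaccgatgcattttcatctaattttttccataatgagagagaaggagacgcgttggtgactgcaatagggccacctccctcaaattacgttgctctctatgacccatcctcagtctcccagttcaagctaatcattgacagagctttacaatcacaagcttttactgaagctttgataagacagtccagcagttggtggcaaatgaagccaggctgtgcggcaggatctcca
FGFR4: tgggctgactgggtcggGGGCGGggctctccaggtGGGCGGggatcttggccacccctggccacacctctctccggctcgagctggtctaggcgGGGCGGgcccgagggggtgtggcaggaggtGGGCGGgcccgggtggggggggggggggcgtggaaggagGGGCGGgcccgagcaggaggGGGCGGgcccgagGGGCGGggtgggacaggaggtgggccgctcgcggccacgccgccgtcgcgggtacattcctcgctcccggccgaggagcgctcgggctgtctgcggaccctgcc

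The FGF21 window held 1 composite match, TTGCATCA, which starts at position -54 from the start site and lies on the minus strand. This motif was found in 3.62% of all 35116 windows of the same length. The KLB window held no match to any of the 5 motifs, and its GC content was 42.3%, against a median of 58.7% over all windows. The printed FGFR4 window held 7 GC boxes and had a GC content of 78.7%, and GC boxes were found in 45% of all windows. A later FGFR4 window, which is not printed, held no GC box and had a GC content of 57.3%. It held 1 E box, at position -37, a motif found in 7.26% of all windows. The FGFR3 window, which is not printed, held 8 GC boxes at a GC content of 86.3%, and 1 of 5 FGFR2 windows held the composite motif, at position -191 (TGATGAAA). A match describes the letters and does not show that a factor binds there.

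The libraries held 78126878 to 88409567 mapped mates, and with 1 model per gene the counts summed to 103851326 to 113082498. Levels are given as CPM, the count scaled by TMM to library size, in the order H then Q. Hepatocyte markers were present, with 10 of 10 past the filter and a summed level of 18700 and 10800 CPM in the H2O2 libraries, against 14200 and 5640 CPM in the mock libraries. This sum was higher in the H library than in the Q library of each group. ALB was its largest part, at 9140 and 5190 CPM in H2O2 and 5990 and 2560 CPM in mock. All of these markers but TTR were higher in H in both groups. TTR and HNF4A were lower in H2O2 than in mock, at log2 fold changes of -0.31 and -0.63. Endothelial markers summed to 2.55 to 2.84 CPM in H2O2 and 2.30 to 2.91 CPM in mock, and the fibroblast markers, mostly COL1A1, to 15.7 to 18.1 CPM in H2O2 and 20.5 to 25.7 CPM in mock. Blood markers summed to 70.1 to 94.0 CPM in H2O2 and 48.6 to 78.5 CPM in mock, nearly all from CD68, and beta-globin (HBB) had 0 reads in both H2O2 libraries and 2 in each mock library. Bile duct markers, mostly SOX9, summed to 121 to 137 CPM in H2O2 and 125 to 144 CPM in mock.

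Across all 27702 genes the edgeR quasi-likelihood test called 0 genes (0%) at a Benjamini-Hochberg adjusted p under 0.05, and none of the 7 genes was called. At an unadjusted p under 0.05 the same test had 1899 genes (6.86%), among them 3 of the 7, namely FGF19, FGF21 and FGFR1. DESeq2 called 138 genes and limma on log2(FPKM + 1) called 0, with none of the 7 called by either. FGF19, FGF21 and FGFR1 had both H2O2 libraries above both mock libraries, as did 5018 of all genes (18.1%). None of the 7 had both H2O2 libraries below both mock libraries, as 5892 of all genes (21.3%) did, and the groups overlapped for the other 4. The median log2 fold change was 0.35 over the 7 genes and -0.03 over all genes tested. The 7 genes were chosen with earlier results of these data known, so these counts and medians are a description. In these bulk samples a change in the share of cells that express a gene and a change in RNA per cell cannot be told apart.

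FGF19, the bile-acid hormone of the ileum and a growth factor for liver cancer cells, lies on chromosome 11, minus strand (model NM_005117). It had 25.5 and 22.7 CPM in the H2O2 libraries (2599 and 2715 reads), against 16.7 and 15.2 CPM in the mock libraries (1619 and 1847 reads). Both H2O2 values lay above both mock values, and within each group the libraries lay close together. FGF19 averaged 24.1 ± 1.95 CPM in H2O2 and 16.0 ± 1.05 CPM in mock (SD, n = 2 each), a log2 fold change of 0.59 (SE 0.20), or 1.51-fold with a 95% interval of 1.06 to 2.14. The edgeR test gave an unadjusted p of 0.0301 and a Benjamini-Hochberg adjusted p of 0.721, so the difference did not pass. H2O2 over mock was 1.52-fold among the H libraries and 1.49-fold among the Q libraries.

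FGF21, the fasting and stress hormone of the liver, lies on chromosome 19, plus strand (model NM_019113), and was the least expressed of the 7. It had 0.695 and 0.895 CPM in the H2O2 libraries, from 71 and 107 reads, against 0.186 and 0.281 CPM in the mock libraries, from 18 and 34 reads. The groups did not overlap, and the lowest H2O2 value was above the highest mock value. The means were 0.795 ± 0.141 CPM in H2O2 and 0.233 ± 0.0669 CPM in mock (SD, n = 2 each). FGF21 had the highest fold change of the 7, with a log2 value of 1.76 (SE 0.41), or 3.38-fold with a 95% interval of 1.64 to 6.97. The edgeR quasi-likelihood test gave an unadjusted p of 0.00719 and a Benjamini-Hochberg adjusted p of 0.721, and DESeq2 gave an adjusted p of 0.200. H2O2 over mock was 3.74-fold among the H libraries and 3.19-fold among the Q libraries. The neighbouring gene FUT1, which makes the H blood-group antigen and whose RefSeq gene reaches into the window printed for FGF21, shares no exon with FGF21 in GENCODE v29. FUT1 had 5.99 and 5.48 CPM in H2O2, against 4.66 and 5.21 CPM in mock.

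FGF19 exceeded FGF21 in every library when the levels were taken per kilobase of transcript. The ratio of FGF19 to FGF21 per kilobase was 19.6 and 13.6 in the H2O2 libraries, against 48.1 and 29.1 in the mock libraries. Both H2O2 ratios were thus below both mock ratios, which follows from the fold changes of the 2 genes above and was not tested separately.

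KLB encodes beta-klotho, the single-pass membrane protein that lets FGF19 and FGF21 engage their receptors, and lies on chromosome 4, plus strand (model NM_175737). It had 63.6 and 32.5 CPM in the H2O2 libraries, against 95.3 and 38.4 CPM in the mock libraries. The groups overlapped, and in each group the H library was the higher. KLB averaged 48.0 ± 22.0 CPM in H2O2 and 66.8 ± 40.2 CPM in mock (SD, n = 2 each), a log2 fold change of -0.48 (SE 0.53) with a 95% interval of -1.82 to 0.87, and the edgeR adjusted p (Benjamini-Hochberg) was 0.845. H2O2 over mock was 0.668-fold among the H libraries and 0.845-fold among the Q libraries. Without the mock H library the log2 fold change of KLB was 0.32, in a fit that sets both H2O2 libraries against mock Q alone. With the title letter as a replicate block it was -0.41.

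**Figure D1:**
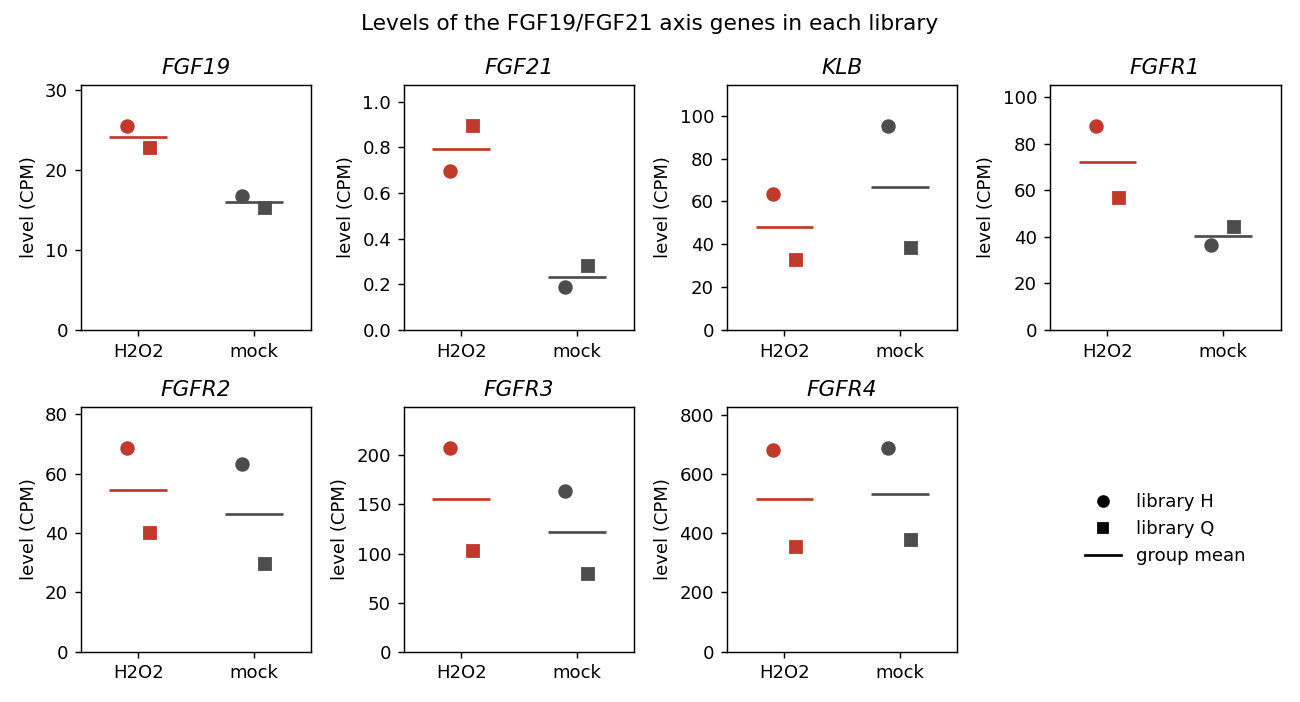
Each panel plots CPM of 1 gene on an axis that starts at 0, with H2O2 left of mock, 1 point per library (H and Q) and a bar at the mean of 2. FGF19, FGF21 and FGFR1 have both H2O2 points above both mock points, while for KLB, FGFR2, FGFR3 and FGFR4 the H library lies above the Q library in each group.

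FGFR1, the receptor through which FGF21 chiefly acts, lies on chromosome 8, minus strand (model NM_001174064). It had 87.7 and 56.7 CPM in the H2O2 libraries, against 36.6 and 44.0 CPM in the mock libraries. Both H2O2 libraries were above both mock libraries, and the H2O2 H library was the highest. FGFR1 averaged 72.2 ± 21.9 CPM in H2O2 and 40.3 ± 5.19 CPM in mock (SD, n = 2 each), a log2 fold change of 0.84 (SE 0.27), or 1.79-fold with a 95% interval of 1.10 to 2.91. The edgeR quasi-likelihood test gave an unadjusted p of 0.0267 and a Benjamini-Hochberg adjusted p of 0.721. The fold change was uneven between letters, at 2.39-fold among the H libraries and 1.29-fold among the Q libraries. FGFR1 shares exons in GENCODE v29 with LETM2, a mitochondrial inner membrane gene on the opposite strand, and with an antisense RNA. No source used here says whether the counting used strand, so reads from shared exons cannot be assigned. LETM2 had 2.32 and 2.71 CPM in H2O2, against 1.16 and 1.64 CPM in mock, far below FGFR1.

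FGFR2, a receptor for several paracrine FGFs that is expressed in many epithelia, lies on chromosome 10, minus strand (model NM_000141). It had 68.8 and 40.0 CPM in the H2O2 libraries, against 63.4 and 29.6 CPM in the mock libraries. The groups overlapped, and the H library was the higher in each. FGFR2 averaged 54.4 ± 20.4 CPM in H2O2 and 46.5 ± 24 CPM in mock (SD, n = 2 each), a log2 fold change of 0.23 (SE 0.45) with a 95% interval of -0.92 to 1.37 and an edgeR adjusted p (Benjamini-Hochberg) of 0.911. H2O2 over mock was 1.08-fold among the H libraries and 1.35-fold among the Q libraries. Without the H2O2 H library the log2 fold change was -0.22, and without the mock Q library it was -0.23. Both of these fits leave the letters unequal between the groups. With the title letter as a replicate block the log2 fold change of FGFR2 was 0.28.

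FGFR3, known as a brake on cartilage growth and as an oncogene of the bladder, lies on chromosome 4, plus strand (model NM_000142). It had 208 and 103 CPM in the H2O2 libraries, against 164 and 79.5 CPM in the mock libraries. Here too the groups overlapped, and each H library was about double its Q library. FGFR3 averaged 156 ± 74.9 CPM in H2O2 and 122 ± 59.8 CPM in mock (SD, n = 2 each), a log2 fold change of 0.35 (SE 0.48) with a 95% interval of -0.87 to 1.58 and an edgeR adjusted p (Benjamini-Hochberg) of 0.872. Its ratio of H2O2 to mock was nearly the same in both letters, at 1.27-fold among the H libraries and 1.29-fold among the Q libraries. Without the H2O2 H library the log2 fold change was -0.25, and without the mock Q library it was -0.08. Both of these fits leave the letters unequal between the groups. With the title letter as a replicate block the log2 fold change of FGFR3 was 0.36.

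FGFR4, the receptor that carries the FGF19 signal in hepatocytes, lies on chromosome 5, plus strand (model NM_213647). It had 679 and 354 CPM in the H2O2 libraries, against 689 and 378 CPM in the mock libraries. The groups overlapped almost wholly, and the libraries divided by letter. FGFR4 averaged 516 ± 230 CPM in H2O2 and 533 ± 220 CPM in mock (SD, n = 2 each), a log2 fold change of -0.05 (SE 0.44) with a 95% interval of -1.18 to 1.08 and an edgeR adjusted p (Benjamini-Hochberg) of 0.984. Within letters, H2O2 over mock was 0.986-fold among the H libraries and 0.937-fold among the Q libraries, although the interval from all 4 libraries allows changes of more than a doubling. Without the mock H library the log2 fold change was 0.45, and without the H2O2 Q library it was 0.35. Both of these fits leave the letters unequal between the groups. With the title letter as a replicate block the log2 fold change of FGFR4 was -0.06.

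**Figure D2:**
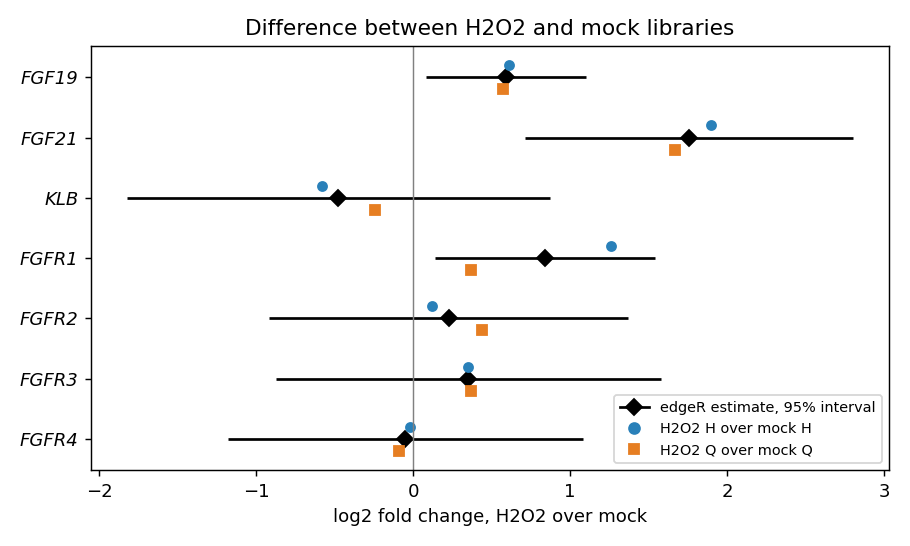
The log2 fold change of H2O2 over mock is plotted for each gene, with its 95% interval as a line and the ratios within letters H and Q as separate marks. The intervals of FGF19, FGF21 and FGFR1 lie above 0 before adjustment over all genes, and those of KLB, FGFR2, FGFR3 and FGFR4 span 0.

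The difference between letters was larger than that between groups for KLB, FGFR2, FGFR3 and FGFR4. FGFR4 was 1.92-fold higher in the H than in the Q library in H2O2 and 1.82-fold in mock. The corresponding ratios were 2.03 in H2O2 and 2.06 in mock for FGFR3, 1.72 in H2O2 and 2.15 in mock for FGFR2, and 1.96 in H2O2 and 2.48 in mock for KLB. FGF19 differed little by letter, with 1.12 in H2O2 and 1.10 in mock, and FGF21 ran the other way, with 0.777 in H2O2 and 0.663 in mock. FGFR1 was higher in H in H2O2 (1.55) and lower in H in mock (0.833). In all, 5 of the 7 genes were higher in H than in Q in both groups, as were 9026 of all genes (32.6%). The summed hepatocyte markers moved with the letters in the same direction as KLB, FGFR2, FGFR3 and FGFR4. Among the markers ALB was the largest, and TTR ran the other way. What part the markers had in the values of KLB and these receptors was not tested.

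Levels between genes were compared as CPM per kilobase of the transcript model. FGFR4 was the highest, with 217 and 113 CPM per kilobase in H2O2, against 221 and 121 in mock, and FGFR3 was next, with 48.6 and 23.9 in H2O2, against 38.2 and 18.5 in mock. FGFR4 ranked first, FGFR3 second and FGF21 last in every library. FGFR1 had 21.1 and 13.6 CPM per kilobase in H2O2, against 8.81 and 10.6 in mock, and FGFR2 had 16.2 and 9.40 in H2O2, against 14.9 and 6.95 in mock. The ranges of FGFR1 and FGFR2 overlapped, so their order is within the spread. KLB had 10.5 and 5.34 CPM per kilobase in H2O2, against 15.7 and 6.31 in mock, and FGF19 had 10.4 and 9.28 in H2O2, against 6.83 and 6.23 in mock. These ranges also overlapped, with each other and with FGFR1 and FGFR2, and KLB ranked above FGFR1 in the mock H library. FGF21 stood apart below them, with 0.530 and 0.682 CPM per kilobase in H2O2, against 0.142 and 0.214 in mock. The order also rests on how reads were counted, since the count totals exceeded the mapped mates and models of many exons may be raised. The receptors have 18 or 19 exons, against 3 in FGF19, 4 in FGF21 and 5 in KLB. The length of FGFR3 came from another of its models, because NM_000142 had no match in the annotation used for lengths.

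**Figure D3:**
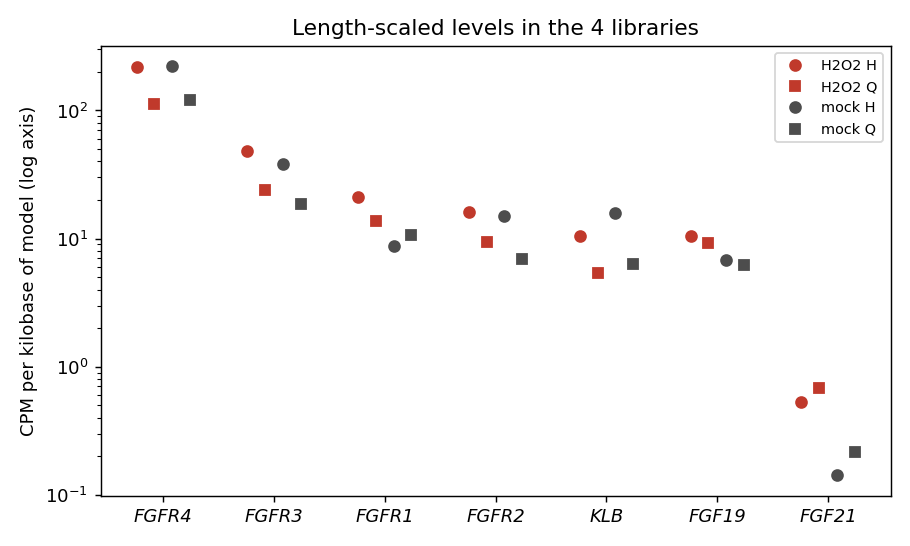
CPM per kilobase is plotted on a log axis for each gene, with 1 point per library and H2O2 left of mock. FGFR4 stands highest, FGFR3 next and FGF21 lowest in every library, while FGFR1, FGFR2, KLB and FGF19 overlap.

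Among the 4 receptors FGFR4 took most of the summed level per kilobase. It made up 71.6% and 70.7% in the H2O2 libraries, against 78.1% and 77.0% in the mock libraries. FGFR3 made up 16.0% and 14.9% in H2O2, against 13.5% and 11.8% in mock, and FGFR1 made up 6.97% and 8.51% in H2O2, against 3.11% and 6.75% in mock. The H2O2 shares of these 3 receptors did not overlap their mock shares, FGFR4 being lower and FGFR1 and FGFR3 higher in H2O2. FGFR2 made up 5.35% and 5.88% in H2O2, against 5.27% and 4.43% in mock, also without overlap but with the nearest H2O2 and mock libraries almost level. The nearest libraries of FGFR1 were almost level too, at 6.97% in H2O2 H and 6.75% in mock Q. With 2 libraries in each group an exact permutation test cannot give a two-sided p under 0.333, so these shares are a description. The 4 shares of a library are parts of a fixed whole, so they are not separate results. The levels of FGFR2, FGFR3 and FGFR4 themselves overlapped between groups. FGFR4 had 217 and 113 CPM per kilobase in H2O2, against 221 and 121 in mock. Over all genes, levels lay above mock without overlap for 18.1% and below for 21.3%. FGFR4 exceeded FGFR1 per kilobase 10.3-fold and 8.31-fold in H2O2, against 25.1-fold and 11.4-fold in mock. KLB stood at 0.0484 and 0.0473 of the FGFR4 level in H2O2, against 0.0710 and 0.0521 in mock.

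FGFR1, FGFR2, FGFR3 and FGFR4 were each listed as several transcript models, whose counts repeat shared reads. The log2 ratio of H2O2 to mock ran from 0.82 to 0.84 over 9 models of FGFR1 and from 0.19 to 0.29 over 10 models of FGFR2. It ran from 0.34 to 0.35 over 3 models of FGFR3 and was -0.05 in all 3 of FGFR4. The choice of model therefore moved these ratios by 0.10 or less on the log2 scale. FGFR2 and FGFR3 each use 1 of 2 alternative exons for the last part of the third immunoglobulin-like domain, called IIIb in epithelia and IIIc in mesenchyme, which sets which ligands bind. The FGFR2 IIIc model (NM_000141) had 162 and 62 reads more than the IIIb model (NM_022970) in H2O2, against 82 and 52 in mock. That was 2.31% and 1.3% of the IIIc count in H2O2, against 1.34% and 1.45% in mock. The FGFR3 IIIc model (NM_000142) had 367 and 118 reads more than the IIIb model (NM_001163213) in H2O2, against 152 and 78 in mock, or 1.72% and 0.961% of the IIIc count in H2O2, against 0.957% and 0.810% in mock. Nearly all reads were counted in both models of a pair, so the use of the exons cannot be read from these differences.

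Genes of most like pattern were sought among those with a RefSeq mRNA and a mean level within 4-fold, by the root mean square difference of centred log2(CPM + 0.5) over the 4 libraries. With 4 values per gene this is a description. For FGF19 the nearest were MTBP (0.0137), SAA2-SAA4 (0.0233) and CDO1 (0.0235), and 177 of 8600 candidates lay within 0.1. For FGF21 they were BTK (0.0644), PREX2 and ANKRD31 (0.0696 each), with 6 of 3280 candidates within 0.1, and the offset of 0.5 compresses differences at so low a level. For KLB the nearest were TJP3 (0.0734), SLC25A6 (0.0768) and PLCXD1 (0.0812). For FGFR1 they were MCC (0.0573), NCAPD3 (0.0636) and FOXN2 (0.0668), and for FGFR2 they were ADK (0.0180), HIRIP3 (0.0237) and C2CD5 (0.0430). For FGFR3 they were CCNG1 (0.0322), PLTP (0.0377) and SAPCD2 (0.05), and for FGFR4 they included BCAM (0.0698) and PPP6R2 (0.0853). Among the 7 genes themselves, FGFR2 and FGFR3 were the closest pair (0.0974), FGF19 and FGF21 differed by 0.214, KLB and FGFR4 by 0.234, and FGF21 and KLB were the farthest apart (0.910).

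**Figure D4:**
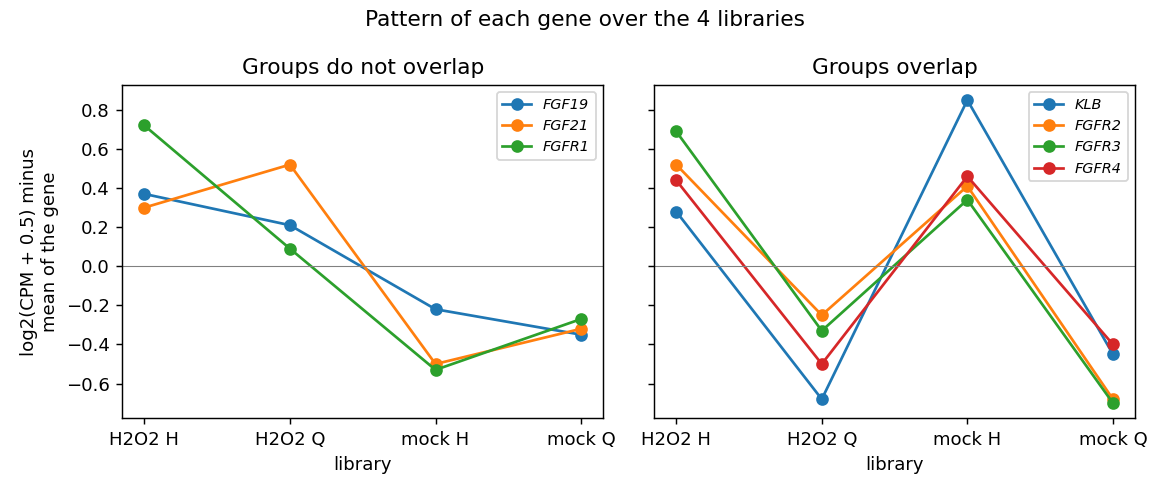
Centred log2(CPM + 0.5) is plotted for each of the 7 genes over the 4 libraries, H2O2 left of mock, with lines that join the values of 1 gene. KLB, FGFR2, FGFR3 and FGFR4 stand high in the H libraries and low in the Q libraries of both groups, while FGF19 and FGF21 are high in both H2O2 libraries.

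Other genes of the FGF pathway were grouped by role, and the edgeR test called 0 genes in every group. Of 16 other FGF ligands 11 were tested, with 6 higher and 5 lower in H2O2 and a median log2 fold change of 0.01. The highest were FGF20 at 0.38 and FGF2, a broadly made growth factor, at 0.20, and the lowest were FGF3 at -0.88 and FGF17 at -1.27 (SE 0.41, unadjusted p 0.0260, adjusted p 0.721 by edgeR). FGF23, the phosphate hormone of bone, was at 0.01. The intracellular homologous factors divided evenly, with FGF12 at 0.46 and FGF14 at 0.53, against FGF13 at -0.40 and FGF11 at -0.82 on the same scale. Of 15 klotho-family genes, carriers and heparan sulfate proteoglycans 14 were tested, with 7 higher and 7 lower and a median of -0.03. KL, the co-receptor of FGF23, had 4 and 39 reads in the H2O2 libraries and 4 and 39 reads in the mock libraries. Its log2 fold change was 0.00 and ran from -2.19 without the H2O2 Q library to 2.13 without the mock Q library. In this group the decoy receptor FGFRL1 was at 0.06, LCTL at 0.33, SDC1 at 0.57, SDC4 at -0.44 and GPC1 at -0.75 in log2 fold change. The 21 carriers of the signal inside the cell had a median of 0.01, with the adaptor FRS2 at -0.02, MAPK3 at 0.26, BRAF at 0.25, PIK3R1 at -0.43 and SOS2 at -0.45. Both H2O2 libraries lay above both mock libraries for 3 of the 21, BRAF among them, and below them for 6, with SOS2 and PIK3R1 among those, beside 18.1% above and 21.3% below over all genes. Some of these signs changed when 1 library was left out, which also leaves the letters unequal between the groups. Within letters, FGF2, FGF13, GPC1 and MAPK3 had the same sign in H and Q. FGF11, FGF20, FGF23, FGFRL1 and FRS2 did not. FGF2 was at -0.47 without the H2O2 Q library and -0.30 without the mock H library, and FGF20 was at -0.08 without the mock Q library. FGF23 was at -0.39 and FGF13 at 0.02 without the H2O2 H library, and FGF23 was at -0.23 without the mock Q library. FGF11 was at 0.63 without the mock H library, where FGFRL1 was at -0.15, and FGFRL1 was at -0.08 without the H2O2 H library. Without the mock Q library GPC1 was at 0.01, FRS2 at 0.18 and MAPK3 at -0.09, and without the H2O2 H library FRS2 was at 0.04 and MAPK3 at -0.19.

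Of 17 ERK feedback and target genes, whose products report or restrain signalling below FGF receptors, 14 were higher and 3 lower in H2O2, with a median log2 fold change of 0.21. The median was 0.50 among the H libraries and 0.07 among the Q libraries, and it was -0.02 when the mock H library was left out. ETV5, an ETS factor induced by FGF signals, had 82.4 and 56.8 CPM in the H2O2 libraries, against 28.7 and 47.0 CPM in the mock libraries. Both H2O2 libraries were above both mock libraries, as for 3 of the 17 and for 18.1% of all genes. The log2 fold change of ETV5 was 0.88 (SE 0.33), with an unadjusted p of 0.0417 and an adjusted p of 0.721 by edgeR, and it was 1.51 among the H libraries and 0.27 among the Q libraries. EGR1 was at 0.92 (SE 0.70), ETV4 at 0.48, SPRY4 at 0.43, DUSP6 at 0.27, SPRY2 at 0.16, CCND1 at 0.01, DUSP4 at -0.23 and SPRED3 at -0.41. Without the H2O2 H library EGR1 was at -0.30, SPRY2 at -0.07, CCND1 at -0.01 and DUSP4 at 0.03. Without the mock H library CCND1 was at -0.29 and SPRY4 and SPRY2 both at -0.02, and without the mock Q library DUSP4 was at 0.72 and SPRED3 at 0.20. The signs of these 6 genes thus changed with a library left out, which also leaves the letters unequal between the groups. Within letters H and Q, EGR1 was at 1.09 and 0.41 and SPRY4 at 0.99 and 0.07. SPRY2, CCND1, DUSP4 and SPRED3 were positive in H and negative in Q.

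Of 16 genes of bile acid sensing and synthesis, the axis on which FGF19 acts, 14 were tested, with 5 higher and 9 lower in H2O2 and a median log2 fold change of -0.30. CYP7A1, the rate-limiting enzyme that FGF19 represses, had 2 and 7 reads in the H2O2 libraries, against 5 and 3 reads in the mock libraries, too few to test. NR0B2, the repressor SHP, had 0.539 and 1.55 CPM in H2O2, against 2.33 and 3.60 CPM in mock. Both H2O2 values lay below both mock values, with a log2 fold change of -1.50 (SE 0.56), an unadjusted p of 0.0432 and an adjusted p of 0.721 by edgeR. Without the H2O2 Q library NR0B2 was at -2.45, and without the H2O2 H library at -0.93. SLC10A1, the bile acid uptake carrier, had 5 and 5 reads in H2O2, against 10 and 24 reads in mock. NR1H4, the bile acid receptor FXR that drives FGF19 in the ileum, was at 0.56 (SE 0.43), and the exporter subunit SLC51B at 0.55. NR1H4 ran from 0.10 without the mock Q library to 1.23 without the mock H library, and SLC51B from 0.05 without the H2O2 H library to 1.15 without the mock H library. In 5 of the 14 genes both H2O2 libraries lay below both mock libraries, beside 21.3% of all genes, and in 0 they lay above, beside 18.1% of all genes. The median was -0.01 without the mock H library. Each fit with a library left out also leaves the letters unequal between the groups.

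Regulators of FGF21 and stress genes induced with it numbered 16, of which 10 were higher and 6 lower in H2O2, with a median log2 fold change of 0.08. PPARA, which drives FGF21 in fasting, was at 0.34, ATF4, which drives it in amino acid and endoplasmic reticulum stress, at 0.21, and XBP1 at 0.43 (SE 0.34, 0.33 and 0.30 in that order). PPARGC1A, a coactivator of fasting genes, was at 0.83 with both H2O2 libraries above both mock libraries. CPT1A, which admits fatty acids to mitochondria and is a PPARA target, had 94.8 and 118 CPM in H2O2, against 168 and 228 CPM in mock. Its groups did not overlap, with a log2 fold change of -0.89 (SE 0.25), an unadjusted p of 0.0144 and an adjusted p of 0.721 by edgeR. SESN2, a stress-induced sestrin, was named after its value was seen. It was the only other gene of the group with an unadjusted edgeR p under 0.05 (log2 fold change -0.51, SE 0.18, adjusted p 0.721). So 2 of the 16 had such a p, beside 6.86% of all genes. Both H2O2 libraries lay above both mock libraries for 1 of the 16, beside 18.1% of all genes. They lay below for 2, beside 21.3% of all genes. Without the H2O2 H library the median of the group was -0.15, ATF4 was at -0.15 and PPARA at -0.11. Without the mock Q library the median was -0.06 and ATF4 was at -0.04. These fits also leave the letters unequal between the groups.

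Of 9 genes of the 11q13 region around FGF19, which is amplified in some liver cancers, 8 were tested (ORAOV1, also called LTO1, counted as 1 gene), with 5 higher and 3 lower in H2O2 and a median log2 fold change of 0.03. ANO1, a chloride channel gene of that region, had 33.2 and 29.9 CPM in the H2O2 libraries, against 66.9 and 64.4 CPM in the mock libraries. Its groups did not overlap, with a log2 fold change of -1.06 (SE 0.18), an unadjusted p of 0.00193 and an adjusted p of 0.721 by edgeR, while DESeq2 gave -1.03 and an adjusted p of 0.0359. Both H2O2 libraries lay above both mock libraries for 2 of the 8, beside 18.1% of all genes. They lay below for 3, ANO1 among them, beside 21.3% of all genes. CCND1 (cyclin D1) was at 0.01, PPFIA1 at 0.17 and MYEOV at 0.57 (SE 0.94), beside 0.59 for FGF19. Without the H2O2 Q library MYEOV was at -0.75. Without the mock H library MYEOV was at -0.16 and CCND1 at -0.29, where the median of the region was -0.22. These fits also leave the letters unequal between the groups.

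**Figure D5:**
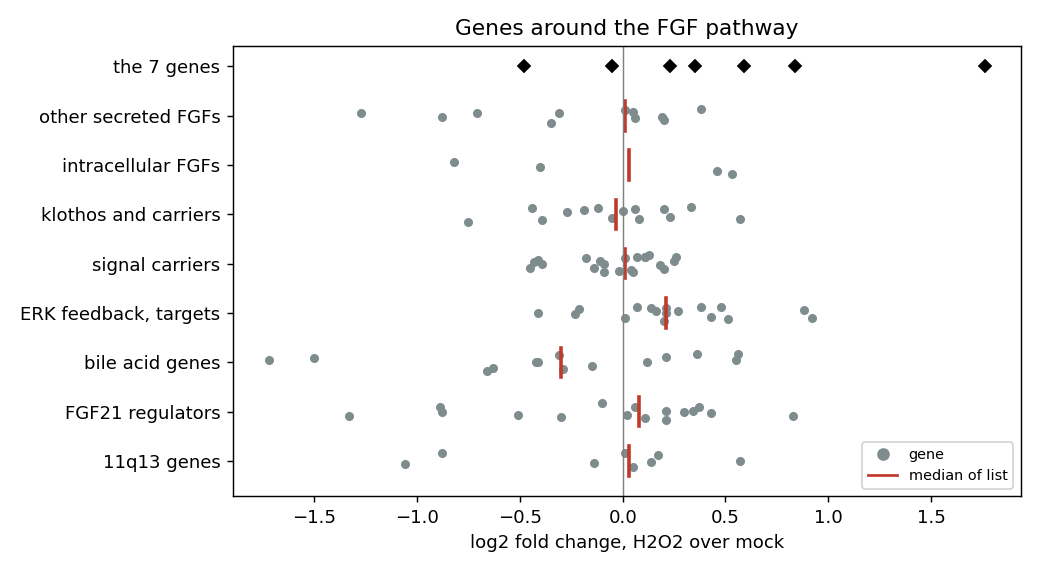
Each point is the log2 fold change (H2O2 over mock) of 1 tested gene, in a row for each group of pathway genes. A line marks the median of each of these groups, and the top row shows the 7 genes as diamonds without a median line. The medians of the groups lie between -0.30 for bile acid genes and 0.21 for ERK feedback and target genes. The median over all genes was -0.03, and single genes spread on both sides of 0 in every row.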

How the data were processed

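The members and gene lists were chosen with earlier results of these data known. Per the submitters' processing notes, CASAVA, Bowtie 0.12.2, TopHat 1.3.3 and Cuffdiff were used, and hg19 and GRCh37 were among the builds named. No source used here names the counting program. Each transcript model had a whole-number count and an FPKM value per the file headers. Isoforms repeated shared reads, so 1 model per gene (highest total count) was used.

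The deposited FPKM did not follow count over length, so it served in alternatives, and levels between genes are CPM per kilobase with GENCODE v29 lengths matched by RefSeq accession. Genes with at least 10 reads in at least 2 libraries were kept. H2O2 against mock was tested, two-sided, with edgeR 4.0.16 quasi-likelihood (R 4.3.3), using TMM factors of 0.903 and 1.06 in H2O2 and 0.932 and 1.12 in mock, with treatment as the sole term, 2 residual degrees of freedom and Benjamini-Hochberg adjustment at 5%. Intervals are at 95%. Alternatives were DESeq2 1.42.0, limma 3.58.1 on log2(FPKM + 1), other factors, filters and models, a replicate block and leaving out each library. From each list the text names the highest and lowest genes by fold change, 2 of each, and the genes that the list marks for naming. A few genes that these rules would name are not reported here. Sequences and motif shares came from a RefSeq table of GRCh38.p14.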

Additional observations from a re-analysis of the deposited data

How the results depend on the processing

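The number of genes past 5% was 0 with edgeR and moved to 138 with DESeq2, 9 with no filter on low counts and 42 with the title letter as a replicate block. It ran from 0 to 11 when 1 library was left out, with 11 without the mock Q library. None of FGF19, FGF21, KLB and the 4 receptors passed under any setting run, and their direction was kept except when a library was left out. Then FGF19 ran from 0.51 to 0.68 in log2 fold change, FGF21 from 1.5 to 2.09, FGFR1 from 0.49 to 1.13, FGFR2 from -0.23 to 0.88, FGFR3 from -0.25 to 0.97, FGFR4 from -0.59 to 0.45 and KLB from -1.04 to 0.32. These reversals came without the mock Q or the H2O2 H library for FGFR2 and FGFR3. They came without the mock H or the H2O2 Q library for FGFR4, and without the mock H library for KLB. Such fits also leave the letters unequal between the groups. The letters are not stated to pair the libraries, and the deviations of the H and Q libraries from their group means correlated at 0.602 between H2O2 and mock across 27702 genes, which are not independent. With the replicate block the edgeR adjusted p was 0.111 for FGF21, 0.146 for FGF19, 0.157 for FGFR1 and 0.217 to 0.845 for the other 4.

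With 1 library left out, these log2 fold changes crossed 0: ATF4 (-0.15 to 0.50), CCND1 (-0.29 to 0.39), DUSP4 (-0.80 to 0.72), EGR1 (-0.30 to 1.64), FGF11 (-1.53 to 0.63), FGF13 (-1.03 to 0.02), FGF2 (-0.47 to 0.96), FGF20 (-0.08 to 0.97), FGF23 (-0.39 to 0.33), FGFRL1 (-0.15 to 0.29), FRS2 (-0.20 to 0.18), GPC1 (-1.24 to 0.01), KL (-2.19 to 2.13), MAPK3 (-0.19 to 0.71), MYEOV (-0.75 to 2.17), PPARA (-0.11 to 0.69), SPRED3 (-0.83 to 0.20), SPRY2 (-0.07 to 0.36) and SPRY4 (-0.02 to 1.10). CCND1 was -0.05 with upper-quartile factors and -0.01 with the FPKM filter, and FGF23 was -0.05 with upper-quartile factors and -0.01 with the replicate block. DUSP4 was 0.14 and FRS2 0.23 with limma on log2(FPKM + 1), and FRS2 was 0.01 with DESeq2. Leaving out 1 library also leaves the letters unequal between the groups, and the cause of these sign changes was not tested. The deposited FPKM gave the same order of mean levels, with FGFR4 at 3950, FGFR3 at 834, FGFR1 at 337, FGFR2 at 301, KLB at 66.2, FGF19 at 38.5 and FGF21 at 2.43, a scale on which genes with many exons stand higher. With 18 to 107 reads per library FGF21 is the one of the 7 genes that depth limits most. FGF20, FGF23, FGF13, FGF14, KL, SLC10A1 and CYP7A1 had fewer reads in all.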
